A study of Mus musculus with 62 samples.

Results

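Mhrt, Linc-md1, Mir133b, Mir208b, Gm31251, Gm32672 and Gm34302 are 7 genes, annotated as long noncoding RNAs or microRNA genes in the table of the chow experiment, whose transcripts were at higher levels in soleus (SOL) than in gastrocnemius (GC). They were picked by gene name out of 30250 entries, 7306 of them long noncoding RNAs and 624 of them microRNAs, for their SOL and GC values in each genotype and for how their GC values followed Myh7, the myosin heavy chain of slow-twitch fibers. Those values are therefore given as a description without a test. Tests are given only for values that the rule did not use. These are genotype within a muscle, ratios between genotypes in SOL, hypoxia and diet, and the relation of Gm34302 to Myh7 in the hypoxia and diet experiment. Where a comparison fell under the minimum level, this is said beside it.

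SOL is a postural muscle rich in slow, oxidative fibers, whereas GC is mostly fast. Muscle fibers hold a group of microRNAs called myomiRs. Several of them lie inside myosin genes or inside longer noncoding transcripts and can be released when the host transcript is cut. Mir208b lies within Myh7, and Mhrt is transcribed from the opposite strand of the same locus. Linc-md1 was described as a muscle transcript that binds microRNAs and carries the Mir133b sequence.

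The chow experiment compared male mice with floxed ChREBP alleles (ChREBP-flox, F/F) and mice that carried the same alleles with Cre under the muscle creatine kinase promoter (ChREBP-flox;Mck-cre, ChMKO), with GC and SOL from 5 mice of each genotype. ChREBP, encoded by Mlxipl, is a transcription factor that responds to carbohydrate. The other experiments measured gastrocnemius of F/F and ChMKO mice, 4 per group, under normoxia on chow (Norm), in a hypoxic chamber set to mimic 5500 m (Hypo), or fed a diet that gave 68% of its calories as fructose (HFrD). Another set came from C57BL6/J mice given AAV vectors with a CMV promoter that carried ChREBP (AAV-MLXIPL, here AAV-ChREBP) or a control (AAV-CON), 5 per group, and a last one from stable lines of the C2C12 mouse myoblast line with ChREBP overexpression or a control vector, 4 libraries each at day 7 of differentiation. The libraries of F/F and ChMKO mice carry numbers that are read here as mouse numbers. The numbers of the AAV libraries recur in both AAV groups, and the labels do not say what they stand for. The study's methods call the replicates of each group independent. The promoter that drives Cre is active in muscle fibers, so other cells of the tissue keep ChREBP.

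In the chow experiment Mlxipl was lower in ChMKO than in F/F in both muscles, by 0.63 on the log2 scale in GC (unadjusted p = 0.00042, adjusted p = 0.41, limma) and by 0.47 in SOL (unadjusted p = 0.0049, adjusted p = 0.38). In GC the F/F libraries lay between 20.4 and 30.3 FPKM and the ChMKO libraries between 12.5 and 18.5 FPKM, so the groups did not overlap, whereas in SOL they did (43.8 to 64.1 against 30.0 to 46.1 FPKM). FPKM is the number of fragments per kilobase of transcript, scaled to the number mapped in the library. The chow libraries held 16390260 to 19808340 reads, as recovered from the steps of the FPKM values. The SOL library of F/F mouse 71 stood apart: the summed level of its tendon and fibroblast markers was 60.8 FPKM, against 187 to 242 in the other F/F soleus libraries, and its slow-fiber markers summed to 21915 FPKM against 13797 to 18043. The soleus library in the F/F column numbered 69 carries the number 59 in its title. In whole muscle, fewer cells of a type and less RNA per cell cannot be told apart.

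The mature microRNA sequences of the 2 microRNA members are shown beside miR-206-3p, from the same locus as Mir133b, and beside relatives of miR-208b, because they are what the transcripts could yield. Bases 2 to 8, the seed, are in capitals, and the sequences are from RefSeq on GRCm38.p6.
miR-133b-3p: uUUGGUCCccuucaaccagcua
miR-133b-5p: gCUGGUCAaacggaaccaaguc
miR-206-3p: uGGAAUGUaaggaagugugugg
miR-208b-3p: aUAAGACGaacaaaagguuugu
miR-208b-5p: aAGCUUUUugcucgcguuaugu
miR-208a-3p: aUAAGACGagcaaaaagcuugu
miR-499-5p: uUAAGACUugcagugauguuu

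miR-208b-3p had the same seed as miR-208a-3p, the product of the neighbouring cardiac myosin locus, and the sequences matched at 19 of 22 positions. miR-499-5p, which comes from the slow myosin gene Myh7b, shared bases 2 to 7 with miR-208b-3p but not base 8, and matched it at 10 of 21 positions. miR-133b-3p and miR-206-3p, whose genes lie beside each other, had different seeds. All libraries were made from mRNA, so what was counted at Mir133b and Mir208b is longer RNA that covers these positions and not the mature microRNA.

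The members fell at 4 places in the genome. On GRCm38, the build that the chow positions match, Mhrt spanned chr14:54968787-54974349 on the plus strand, with 5 exons of 828 bases, of which 484 (58.45%) lay within exons of Myh7 on the minus strand. Gm31251, an unstudied long noncoding RNA, spanned chr14:54975264-55005006 on the plus strand, and 523 of its 1248 exon bases (41.9%) lay within Myh7 exons. Mir208b was at chr14:54975700-54975776 on the minus strand, in the intron of Myh7 between exons 31 and 32 of 41. The kit does not state strand, so reads from Myh7 and from the antisense Mhrt and Gm31251 cannot be told apart where their exons overlap.

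Linc-md1 (Lincmd1 in RefSeq) spanned chr1:20669882-20682958 on the plus strand with 3 exons of 521 bases. Mir133b, at chr1:20682769-20682887, lay wholly inside its last exon, so that all 119 bases of Mir133b are also exon of Linc-md1, while Mir206, at chr1:20679010-20679082, lay in an intron. Gm32672, at chr5:122093214-122099354 on the plus strand, is listed by RefSeq on GRCm38.p6 as a synonym of Myl2, which encodes the slow and cardiac regulatory myosin light chain. Gm34302, at chr3:63481104-63483906 on the minus strand, is now Strit1, which encodes DWORF, a small membrane protein that promotes calcium uptake by the pump SERCA. For these 2 genes the reference therefore goes against the noncoding label of the chow table.

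The promoters of Mhrt, Linc-md1 and Strit1 are shown because these genes were high in SOL together from separate loci. Each run holds 250 bases before and 50 after the start in RefSeq on GRCm38.p6, 5′ to 3′ on the strand of the gene, and capitals mark matches to CANNTG (E-box), CATTCC (M-CAT) or the MEF2 motif. Mhrt is at chr14:54968537-54968836 (plus), Lincmd1 at chr1:20669632-20669931 (plus) and Strit1 at chr3:63483857-63484156 (minus).
Mhrt promoter: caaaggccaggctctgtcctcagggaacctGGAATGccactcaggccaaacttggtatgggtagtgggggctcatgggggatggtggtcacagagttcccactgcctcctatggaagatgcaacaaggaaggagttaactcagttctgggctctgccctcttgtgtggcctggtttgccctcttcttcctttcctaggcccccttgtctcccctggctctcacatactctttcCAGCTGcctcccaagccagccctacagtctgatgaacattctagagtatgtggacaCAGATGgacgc
Lincmd1 promoter: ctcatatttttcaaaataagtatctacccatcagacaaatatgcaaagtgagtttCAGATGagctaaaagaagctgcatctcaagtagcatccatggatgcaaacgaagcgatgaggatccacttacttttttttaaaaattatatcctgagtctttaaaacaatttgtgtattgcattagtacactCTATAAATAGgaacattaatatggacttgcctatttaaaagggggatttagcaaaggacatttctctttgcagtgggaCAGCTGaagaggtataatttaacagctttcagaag
Strit1 promoter: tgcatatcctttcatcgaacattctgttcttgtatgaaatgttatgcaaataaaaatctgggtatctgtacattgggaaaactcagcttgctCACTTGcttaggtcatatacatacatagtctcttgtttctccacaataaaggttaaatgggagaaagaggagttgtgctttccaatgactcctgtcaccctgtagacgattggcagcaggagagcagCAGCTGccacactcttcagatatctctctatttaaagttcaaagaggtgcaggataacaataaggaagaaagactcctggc

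Each of the 3 promoters held 2 E-boxes, a motif read by myogenic factors and found in 72.3% of the 32851 promoters of this length when both strands are read. The Mhrt promoter held 1 M-CAT motif, 220 bases before the start, as did 14.7% of all promoters. The Lincmd1 promoter held 1 MEF2 motif, 63 bases before the start, as did 3.19% of all promoters. CACGTG, itself an E-box and part of the element that ChREBP reads, matched none of the 3 windows and 7.15% of all promoters, and the CArG motif matched none of them and 1.63% of all. A match describes the letters and shows no binding.

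**Figure D1:**
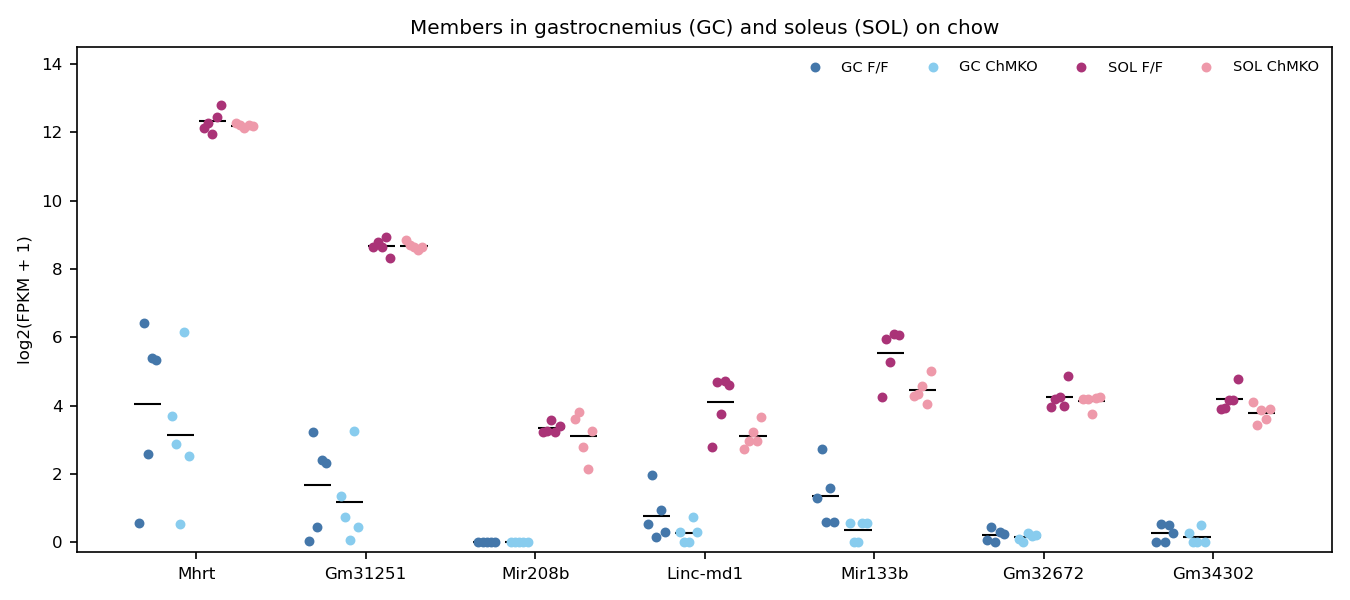
Level of each member in the 20 chow libraries, as log2(FPKM + 1), with 1 point per library, 5 libraries per group, and a bar at the group mean. In every member the SOL points of both genotypes lie above the GC points, and Mhrt is the highest in SOL.

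The 2 long noncoding entries on the strand opposite Myh7, Mhrt and Gm31251, had the highest FPKM of the members in SOL. Where their exons overlap those of Myh7 the reads cannot be told apart, so these levels may include Myh7 reads. Mhrt, a long noncoding RNA known from the heart, was at 4451, 5001, 3953, 5589 and 7145 FPKM in SOL of F/F mice 57, 58, 69, 70 and 71, and at 4918, 4784, 4478, 4711 and 4621 FPKM in SOL of ChMKO mice 59, 60, 61, 72 and 74. In GC it was at 0.491, 83.8, 4.97, 40.9 and 39.6 FPKM in the same F/F mice and at 11.8, 6.30, 0.434, 70.2 and 4.77 FPKM in the same ChMKO mice. The mean in SOL was 154 times that in GC in F/F (243 without GC of mouse 58) and 251 times in ChMKO (806 without GC of mouse 72), and the lowest SOL library was far above the highest GC library in each genotype. Within GC the libraries spread 193-fold, with the lowest and the highest values of both genotypes close to each other.

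Gm31251 had the same order of muscles at a lower level, with Mhrt 9.91 to 22.3 times as high in FPKM in SOL. In SOL it was at 397.2, 442, 399, 489.7 and 320.5 FPKM in F/F and at 461, 413, 400.01, 377 and 402 FPKM in ChMKO. In GC it was at 0.0296, 8.32, 0.350, 4.29 and 3.94 FPKM in F/F and at 1.58, 0.671, 0.0407, 8.50 and 0.350 FPKM in ChMKO. The ratio of means was 121 in F/F (190.4 without GC of mouse 58) and 184 in ChMKO (622 without GC of mouse 72), and in SOL mouse 71 had the lowest Gm31251 but the highest Mhrt. For comparison, Myh7 itself was 129.7-fold higher in SOL in F/F (208-fold without GC of mouse 58) and 196-fold in ChMKO (648-fold without GC of mouse 72).

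Mir208b, the microRNA gene in the Myh7 intron, had no read in any of the 10 GC libraries. In SOL it had 11, 11, 15, 11 and 13 reads in F/F (8.29, 8.48, 11.01, 8.30 and 9.55 FPKM) and 15, 19, 8, 5 and 13 reads in ChMKO (11.2, 13.1, 5.91, 3.45 and 8.52 FPKM). Against a floor of 3 reads over the GC group its mean was at least 19.7-fold higher in SOL in F/F and at least 18.5-fold higher in ChMKO. These are few reads for a gene of 77 bases, and unspliced Myh7 RNA and the microRNA precursor, which both cover this place, cannot be told apart.

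At the Linc-md1 locus, the long transcript was at 5.90, 24.7, 12.6, 25.2 and 23.2 FPKM in SOL of F/F and at 5.63, 6.81, 8.40, 6.74 and 11.7 FPKM in SOL of ChMKO. In GC it had 4, 25, 1, 8 and 2 reads in F/F and 2, 0, 0, 6 and 2 reads in ChMKO, against 53 to 226 and 51 to 121 reads in SOL. The mean was 19.8-fold higher in SOL in F/F (43.1-fold without GC of mouse 58) and 35.5-fold in ChMKO (70.4-fold without GC of mouse 72), with no overlap between the muscles. Among SOL libraries F/F mouse 57 was near the lowest ChMKO library, and the other 4 F/F libraries were above every ChMKO library.

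Mir133b, whose mature product is known in muscle growth and differentiation, was at 18.0, 61.4, 38.0, 66.9 and 66.5 FPKM in SOL of F/F and at 18.4, 19.1, 22.9, 15.6 and 31.4 FPKM in SOL of ChMKO. In GC it had 3, 11, 1, 4 and 1 reads in F/F and 1, 0, 0, 1 and 1 reads in ChMKO. The ratio of means, SOL over GC, was 24.8 in F/F (45.0 without GC of mouse 58) and 73.6 in ChMKO, where the 3 GC reads allow 24.8 to 358 (exact 95% interval, counting error only). As for Linc-md1, F/F mouse 57 lay among the ChMKO values in SOL and the other F/F libraries lay above them. Mir206, the neighbouring myomiR, had no read in GC and 0 to 11 reads per library in SOL.

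Gm32672, at the Myl2 locus, was at 14.4, 17.1, 17.9, 14.9 and 28.4 FPKM in SOL of F/F and at 17.3, 17.2, 12.4, 17.7 and 18.0 FPKM in SOL of ChMKO, and no GC library exceeded 0.374 FPKM. Gm34302 was at 14.04, 14.4, 16.9, 16.95 and 26.6 FPKM in SOL of F/F and at 16.2, 9.80, 13.8, 11.2 and 13.8 FPKM in SOL of ChMKO, and had 0 to 2 reads in each GC library. The SOL mean was 109.9-fold higher for Gm32672 and 83.1-fold for Gm34302 in F/F, and 157-fold and 105-fold in ChMKO. The last rests on 3 GC reads, which allow 35.0 to 502 (exact 95% interval), and was 249 without GC of mouse 72. Both had their highest value in the SOL library of F/F mouse 71.

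All 7 members had SOL libraries that did not overlap the GC libraries in either genotype. Among the genes tested, 26.3% were higher in SOL with no overlap in F/F and 30.2% in ChMKO. The median difference of the members was 4.03 on the log2(FPKM + 1) scale in F/F and 3.98 in ChMKO, against 0.18 and 0.15 over all genes. As the members were chosen on this contrast, nothing is read from these counts.

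Other genes of the pathway are given by their ranges in F/F mice, again as a description. Of 9 hosts of muscle microRNAs, 6 were higher in SOL with no overlap (among them the member Linc-md1 and Myh7), 2 were lower (Ank1 and Mir1a-1hg) and 1 overlapped. Ank1, which encodes a muscle ankyrin, lay between 19.2 and 26.7 FPKM in SOL and between 42.6 and 54.8 FPKM in GC. Myh7b, which hosts the miR-499 sequence shown above, lay between 14.8 and 30.96 FPKM in SOL and between 0.171 and 1.04 FPKM in GC. Of 12 reported targets and partners of the members, 4 (Maml1, Mef2c, Smarca4 and Elavl1) were higher in SOL with no overlap, 2 (Sox6 and Mstn) were lower and 6 overlapped, where 26.3% of all genes were higher and 9.64% lower with no overlap. Sox6, a repressor of slow-fiber genes and a reported target of the miR-208b and miR-499 family, lay between 1.32 and 2.66 FPKM in SOL and between 4.47 and 6.12 FPKM in GC. Mef2c, a muscle transcription factor, lay between 84.5 and 106 FPKM in SOL and between 48.5 and 81.9 FPKM in GC. Mstn, which encodes the growth inhibitor myostatin, lay between 0.242 and 2.21 FPKM in SOL and between 19.3 and 36.5 FPKM in GC. Of 12 other muscle long noncoding RNAs, H19 was higher in SOL with no overlap, Pvt1 was lower and 10 overlapped. H19, an imprinted long noncoding RNA, lay between 605 and 1070 FPKM in SOL and between 106 and 311 FPKM in GC. Of 13 muscle microRNA genes, 3 were higher in SOL with no overlap (the members Mir133b and Mir208b, and Mir23a), 0 were lower and 10 overlapped.

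**Figure D2:**
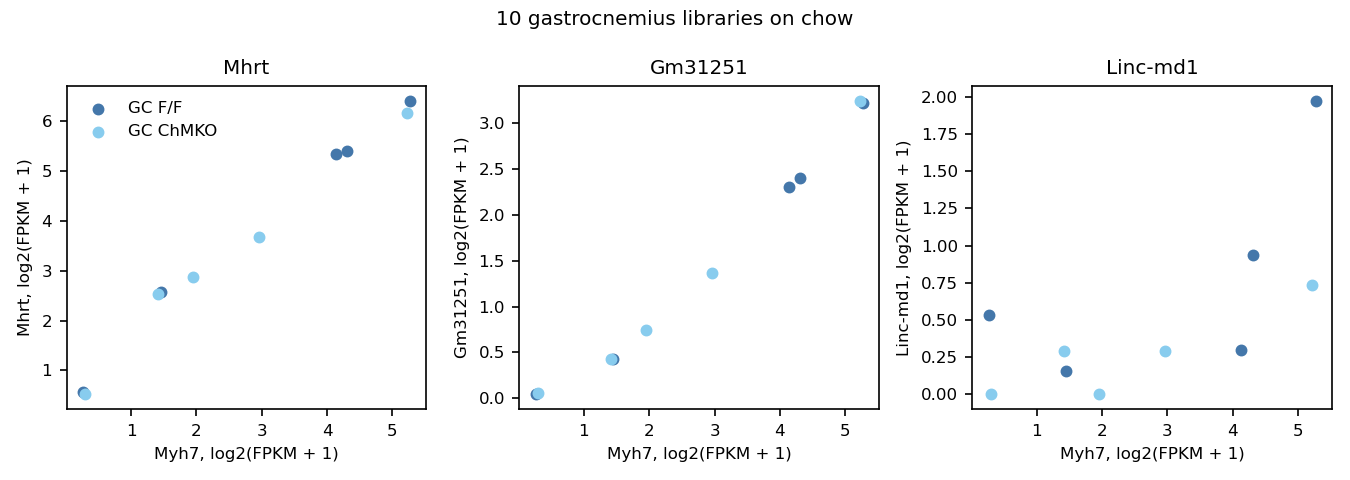
Mhrt, Gm31251 and Linc-md1 against Myh7 in the 10 chow GC libraries, both axes as log2(FPKM + 1), with 1 point per library and colours for genotype. Mhrt and Gm31251 lie close to a line in Myh7, whereas Linc-md1 is scattered.

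Over the 10 GC libraries the members differed in how closely they followed Myh7. On the log2 scale Pearson's r with Myh7 was 0.99 for Mhrt, 0.99 for Gm31251, 0.94 for Gm34302, 0.68 for Linc-md1, 0.56 for Gm32672 and 0.50 for Mir133b. Mir208b was at 0 throughout and gave no value. The Gm34302 value rests on 0 to 2 reads per library: the 5 GC libraries without a read had Myh7 at 0.202 to 2.86 FPKM, and the 5 with reads had it at 6.80 to 37.6 FPKM. The relation was used to choose the members, and whether reads of the overlapping exons were counted for Mhrt, Gm31251 or Myh7 is not given in the sources used here.

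Among the 12724 genes tested in GC, the 3 with the closest pattern over the 10 libraries were Myh7 (r = 0.99), Tnnc1 (0.98) and Gm31251 (0.97) for Mhrt. Tnnc1 encodes slow and cardiac troponin C. For Gm31251 they were Tpm3 (0.99), Tnni1 (0.99) and Myh7 (0.99), and for Gm34302 they were Tnni1 (0.96), Ahcyl2 (0.96) and Tpm3 (0.96). Tpm3 and Tnni1 encode slow-fiber tropomyosin and troponin I. For Linc-md1 they were Hadhb (0.95), Mir133b (0.95) and Decr1 (0.94), the first and last of which encode enzymes of fatty acid oxidation in mitochondria. For Mir133b they were Linc-md1 (0.95), Nrarp (0.94) and Stard7 (0.94), and for Gm32672 LOC102639173 (0.95), Tmem47 (0.94) and Tdp2 (0.93). In GC Linc-md1 held 0 to 25 reads and Mir133b 0 to 11 per library, both highest in F/F mouse 58, and Gm32672 was at most 0.374 FPKM. These are the highest of 12724 values over 10 libraries and were not tested, so no shared function is read from them.

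Between genotypes, no member passed an adjusted p of 0.05 in either muscle on chow. By limma on log2(FPKM + 1), 3 of 7 members tested in SOL and 1 of 4 tested in GC had an unadjusted p under 0.05, against 9.74% of all genes in SOL and 4.63% in GC. By adjusted p, 3 genes were called in each muscle, 0.0225% of those tested in SOL and 0.0236% in GC. Mir208b, Gm32672 and Gm34302 were under the minimum mean of 0.5 FPKM in GC and were not tested there. By the study's criterion, an unadjusted p under 0.05 and a difference of at least 1 on the log2 scale, Mir133b was called lower in ChMKO in both muscles, 1 member in each, where 0.165% of genes in GC and 0.157% in SOL were called in either direction. In GC, Mir133b and Linc-md1 passed the minimum level only through the F/F group, with Mir133b at 2.02 FPKM in F/F against 0.292 in ChMKO, so nothing is read from the GC call.

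**Figure D3:**
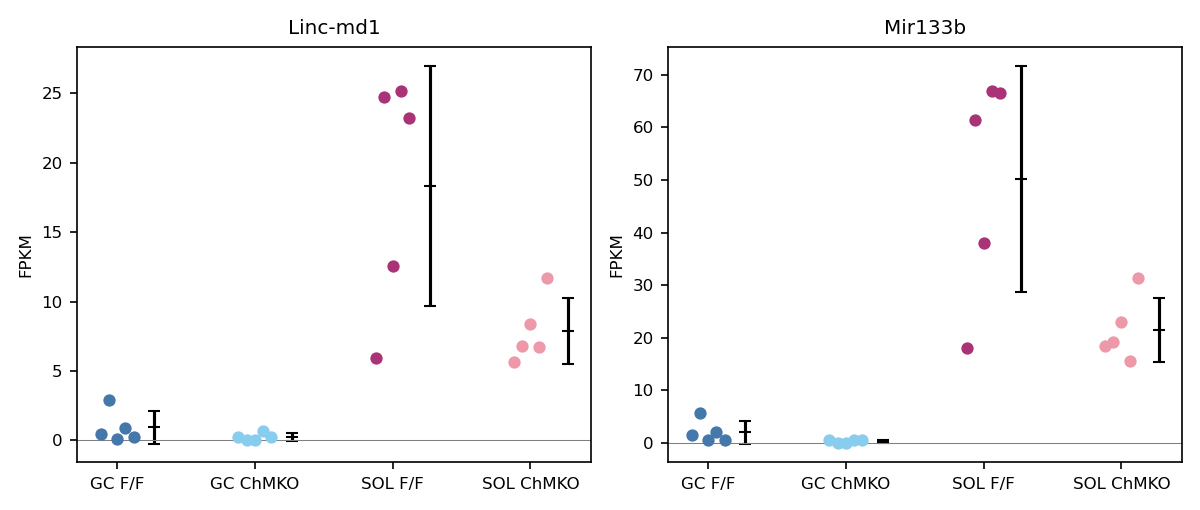
Linc-md1 and Mir133b in FPKM in the 20 chow libraries, with 1 point per library and the mean with SD (n = 5) beside each group. In SOL, 4 of 5 F/F libraries lie above all ChMKO libraries of Linc-md1 and of Mir133b.

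In SOL, Mir133b was at 50.2 ± 21.5 FPKM in F/F mice, against 21.5 ± 6.12 FPKM in ChMKO (SD, n = 5 each), a difference of -1.08 on the log2 scale (SE 0.33, unadjusted p = 0.0076, adjusted p = 0.41, limma). Linc-md1 was at 18.3 ± 8.66 FPKM in F/F mice, against 7.86 ± 2.38 FPKM in ChMKO, a difference of -0.9996 (SE 0.35, unadjusted p = 0.015, adjusted p = 0.42, limma), which fell just short of the size the study's criterion asks for. As Mir133b lies within Linc-md1, these are not separate observations. Without F/F mouse 57 the differences were -1.40 (adjusted p = 0.10) and -1.33 (adjusted p = 0.11). Without F/F mouse 58, 70 or 71, or ChMKO mouse 72, Mir133b no longer met the study's criterion, at -0.97, -0.94, -0.94 and -0.98.

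Markers of other cell types were read in the same SOL libraries. The 3 endothelial markers summed to 88.1 to 143 FPKM in F/F libraries and 70.7 to 89.5 FPKM in ChMKO libraries. Kdr, a receptor for VEGF, differed by -0.49 (unadjusted p = 6.5e-05, adjusted p = 0.12, limma) with no overlap, at 18.3 to 22.7 against 12.5 to 15.3 FPKM, and Cdh5 by -0.32 (unadjusted p = 0.046, adjusted p = 0.51). Smtn, a smooth muscle marker, differed by -0.24 (unadjusted p = 0.0054, adjusted p = 0.38), also with no overlap. The summed satellite-cell markers lay between 15.7 and 40.3 FPKM in F/F and between 27.3 and 41.3 FPKM in ChMKO. Summed adipocyte markers lay between 30.4 and 170 FPKM in F/F and between 38.5 and 156 FPKM in ChMKO, and summed Schwann cell markers between 14.9 and 79.6 FPKM and between 15.9 and 27.6 FPKM. Of 45 markers tested 4 had an unadjusted p under 0.05 and 0 an adjusted one, and the genotypes overlapped in the sums of all 11 lists. Their part in the result was not tested.

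In GC, Mir133b differed by -1.01 on the log2 scale (SE 0.36, unadjusted p = 0.016, adjusted p = 1.00, limma), on 20 reads in the F/F group and 3 in the ChMKO group. With a pseudocount of 0.1 the difference was -2.34, and without F/F mouse 58, which held 11 of those 20 reads, it was -0.67. Linc-md1 differed by -0.52 (adjusted p = 1.00), and Mhrt by -0.91 (SE 1.19, adjusted p = 1.00), beside -0.72 for Myh7. Leaving out 1 library moved Mhrt from -1.78 (without F/F mouse 57) to -0.25 (without ChMKO mouse 61) while Myh7 reached -1.43 when ChMKO mouse 72 was dropped and -0.17 when F/F mouse 58 was. The genotype difference in SOL minus that in GC was -0.48 for Linc-md1 and -0.07 for Mir133b, and 0.37 and 1.23 with a pseudocount of 0.1. As it is built from the contrast the members were chosen on, it is given without a test.

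The other members differed less in SOL. Gm34302 was at 17.8 ± 5.11 FPKM in F/F mice, against 12.9 ± 2.50 FPKM in ChMKO, a difference of -0.41 (SE 0.17, unadjusted p = 0.037, adjusted p = 0.48, limma). Without F/F mouse 71, which held the highest value, it was -0.26 (unadjusted p = 0.069, limma). The unadjusted p was also over 0.05 when F/F mouse 69 or 70 or ChMKO mouse 60 or 72 was left out. Mhrt differed by -0.12 (SE 0.14), Gm31251 by 0.01 (SE 0.11), Gm32672 by -0.13 (SE 0.17) and Mir208b by -0.21 (SE 0.26), with an unadjusted p of 0.398 for Mhrt and larger ones for the rest. Myh7 differed by -0.05 (SE 0.09).

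Of the muscle microRNA genes, 9 of 13 listed in the chow table could be tested in GC. By the study's criterion Mir133b was lower and Mir23a was higher in ChMKO (1.12, unadjusted p = 0.023, adjusted p = 1.00, limma), where 0.165% of all genes were called. In GC Mir23a lay between 0 and 0.813 FPKM in F/F and between 0 and 5.42 FPKM in ChMKO. Both genes were close to the limit of detection in GC, so nothing is read from these calls. In SOL 12 could be tested, and Mir133b was the only one that met the criterion, where 0.157% of all genes did. None of the host genes (6 tested in GC, 8 in SOL), the reported targets and partners (12 in each) or the other muscle long noncoding RNAs (7 and 8) met it. The median difference of the microRNA genes was -0.26 in GC and -0.24 in SOL, against 0.01 and -0.02 over all genes.

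**Figure D4:**
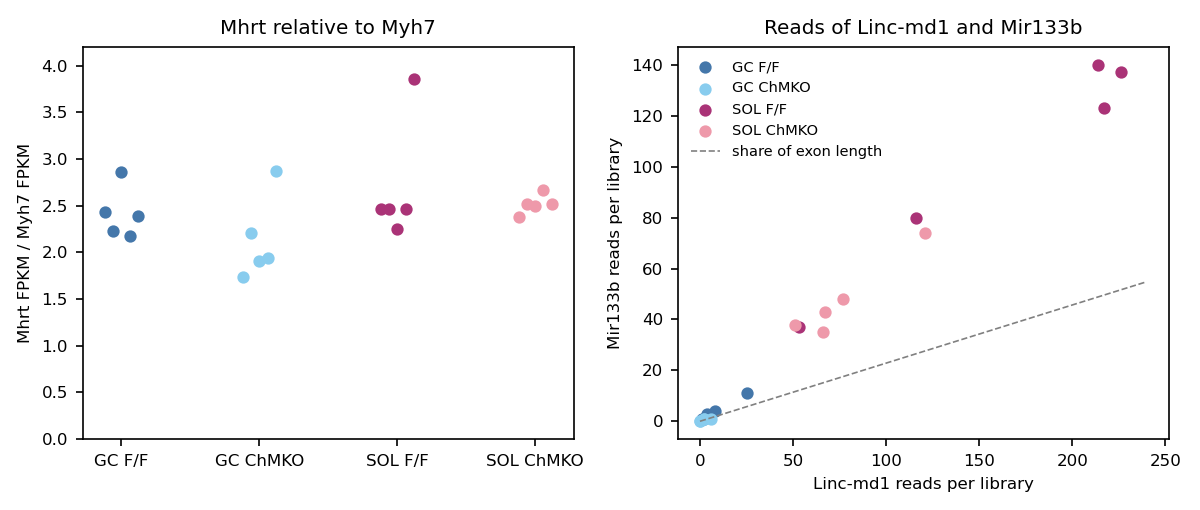
Left, the ratio of Mhrt to Myh7 FPKM in each chow library by group. Right, reads of Mir133b against reads of Linc-md1 in each chow library, with a dashed line at the share of Linc-md1 exon length that Mir133b covers. The SOL library of F/F mouse 71 has the highest ratio, 3.86, and every SOL library lies above the dashed line.

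The ratios of Mhrt and Gm31251 to Myh7 overlapped between the muscles, where the levels were far apart. Mhrt was 1.74 to 2.87 times Myh7 in FPKM in GC and 2.25 to 3.86 times in SOL, or 2.25 to 2.67 times in SOL without F/F mouse 71. Gm31251 was 0.147 to 0.238 times Myh7 in GC and 0.173 to 0.227 times in SOL. Gm32672 was 0.493% to 0.835% of Myl2 in SOL (median 0.686%) and 0% to 0.810% in GC (median 0.215%).

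In SOL, Mir133b held 755 reads against 1208 at Linc-md1, or 62.5%, with 53.0% to 74.5% in single libraries, although it makes up 119 of the 521 exon bases. In GC it held 23 against 50 reads. How reads shared by both annotations were assigned is not given in the sources used here. In SOL no difference in these ratios between genotypes was detected by exact two-sided permutation tests over 252 splits, with p = 0.897 for Mhrt over Myh7, 0.635 for Gm31251 over Myh7, 0.444 for Gm32672 over Myl2 and 0.794 for Mir133b over Linc-md1 (0.897 for each after adjustment over these 4). For Mhrt over Myh7 the F/F mean was 2.70 against 2.52 in ChMKO, and without F/F mouse 71 it was 2.41, below ChMKO, with an exact permutation p of 0.222.

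In the tables of the other experiments Gm34302 appears as Strit1. Myl2 is listed there too, but it spans more than the Gm32672 entry and its values were not taken for Gm32672, and the other members were not analysed there. In the 24 gastrocnemius libraries of the hypoxia and diet experiment it held 0 to 8 reads each, so it was close to the limit of detection throughout. Under Norm it had 2 reads in 1 F/F library (0.455 FPKM) and none in the other 7 libraries. Under Hypo it was at 0.867, 1.01, 0.505 and 0.265 FPKM in F/F and at 0.708, 0, 1.27 and 1.55 FPKM in ChMKO. On HFrD it was at 1.49, 1.05, 0.428 and 1.04 FPKM in F/F and at 1.19, 1.14, 0.382 and 0.628 FPKM in ChMKO. All 8 HFrD libraries and 7 of 8 Hypo libraries had a read, and within each treatment the genotypes overlapped.

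**Figure D5:**
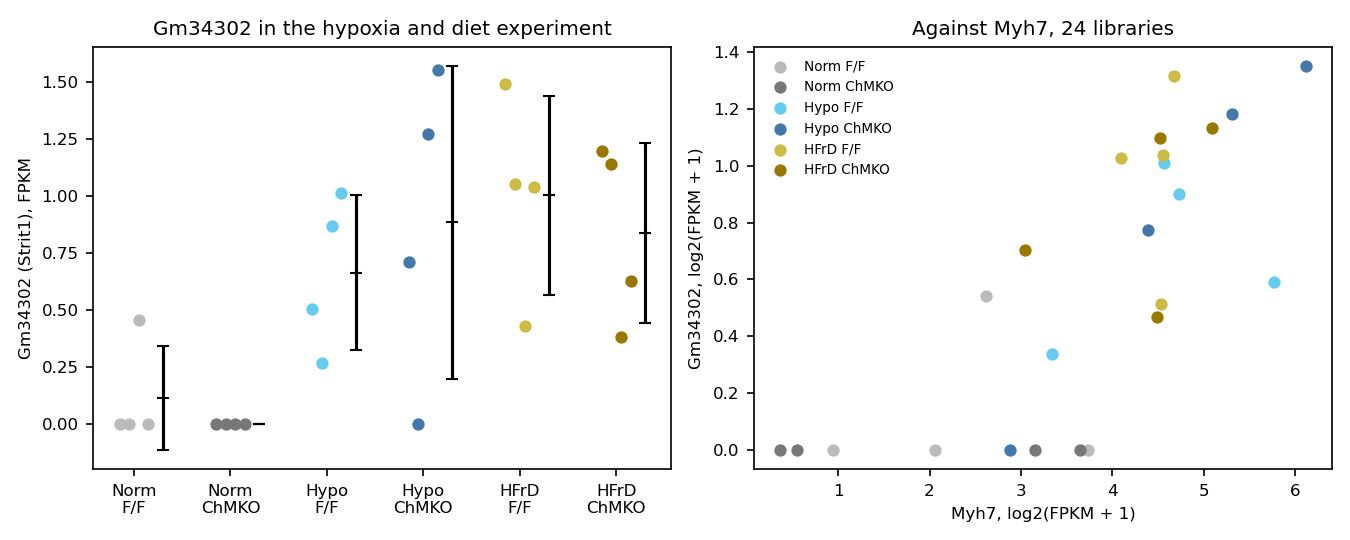
Left, Gm34302 (Strit1) in FPKM in the 24 libraries of the hypoxia and diet experiment, with 1 point per library and the mean with SD (n = 4) beside each group. Right, Gm34302 against Myh7 in the same libraries, both as log2(FPKM + 1). Of the 8 Norm libraries 7 lie at 0, and the points rise with Myh7 with wide scatter (Pearson's r 0.75).

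In F/F, Gm34302 was 0.84 higher on the log2(FPKM + 1) scale on HFrD than under Norm (SE 0.18, unadjusted p = 0.0015, adjusted p = 0.14, limma), where 23.6% of genes had an unadjusted p under 0.05 and 0.420% met the study's criterion. Of 42 markers of fiber and other cell types tested there, 20 had an unadjusted p under 0.05, and the median difference was 1.42 for slow-twitch fibers, -0.90 for red blood cells, -0.77 for Schwann cells and -0.68 for macrophages, against -0.10 over all genes. Their part in the result was not tested. It passed the filter in that comparison only through the diet group, so nothing is read from its p, and the difference was under the size of 1 that the criterion asks for. At these low levels the size depends on the scale: it was 2.74 with a pseudocount of 0.1 and 2.56 with voom on recovered reads. In ChMKO the same comparison fell under the filter. Without the filter it gave 0.85 (adjusted p = 0.0014), where 43.2% of all genes had an adjusted p under 0.05. No Norm ChMKO library held a read, so nothing is read from this p. Hypo against Norm also fell under the filter in both genotypes, and without it gave 0.57 in F/F (unadjusted p = 0.012, adjusted p = 1.00) and 0.83 in ChMKO (unadjusted p = 0.011, adjusted p = 0.26). Nothing is read from these p values. Without the 1 Hypo ChMKO library that had no read Gm34302 passed the filter, only through the Hypo group, at 1.10 (adjusted p = 0.011, limma), from which nothing is read either. Of the markers, 9 of 43 had an unadjusted p under 0.05 for Hypo in F/F, 15 of 42 for Hypo in ChMKO and 27 of 41 for HFrD in ChMKO. Over all genes these were 412 of 10738, 1613 of 10674 and 7309 of 10731. The part of these markers was not tested.

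Between genotypes Gm34302 differed by 0.12 under Hypo (SE 0.28, adjusted p = 0.82, limma) and by -0.12 on HFrD (SE 0.19, adjusted p = 0.94). By the study's criterion 0.0565% and 0.0190% of genes were called in these comparisons. The interaction of genotype with hypoxia was 0.25 (unadjusted p = 0.45) and that with diet 0.01 (unadjusted p = 0.97). Both rest on the Norm groups, which held 2 reads in F/F and 0 in ChMKO, so nothing is read from these p values.

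Myh7, read in the same libraries, lay between 0.289 and 12.3 FPKM under Norm, between 6.36 and 68.3 FPKM under Hypo and between 7.23 and 33.2 FPKM on HFrD. Against Norm it was 2.26 higher under Hypo in F/F (unadjusted p = 0.0066, adjusted p = 1.00, limma) and 2.75 in ChMKO (unadjusted p = 0.0084, adjusted p = 0.16). It was 2.12 higher on HFrD in F/F (unadjusted p = 0.0020, adjusted p = 0.14) and 2.36 in ChMKO (unadjusted p = 0.013, adjusted p = 0.024). In that ChMKO comparison 6867 of 10731 genes had an adjusted p under 0.05. The same Norm libraries were set against both treatments, and in the paper's methods the diet lasted longer than the hypoxia. Diet therefore cannot be told apart from a difference in age or run. Over the 24 libraries Gm34302 and Myh7 gave a Pearson's r of 0.75 (permutation p = 1e-05, the smallest the permutations can give) and a Spearman's rho of 0.80 (permutation p = 1e-05), as the 1 relation tested.

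With the group means removed r was 0.46 (permutation p = 0.022) and rho 0.45 (permutation p = 0.026). Without the 2 libraries farthest from the median of Myh7 r was 0.73 (permutation p = 0.00011), and without the Norm libraries, an alternative added after the data were seen, it was 0.63 (n = 16, permutation p = 0.0091). The share of slow fibers in each sample was not measured separately, and its part in this relation was not tested.

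In the AAV experiment Gm34302 was listed at 0 in 9 of 10 libraries and at 0.213 FPKM in AAV-CON library 8. In C2C12 it was listed at 0 in 6 of 8 libraries and at 1.29 and 1.22 FPKM in the ChREBP overexpression libraries 3 and 4. No fold or test is given for either. Myh7 lay at 3.71, 24.2, 0.042, 54.0 and 20.4 FPKM in AAV-CON and at 1.38, 1.27, 13.3, 37.1 and 17.5 FPKM in AAV-ChREBP, with overlapping groups.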

How the data were processed

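RNA was sequenced after mRNA enrichment in 62 libraries, and the authors deposited 1 table of FPKM per experiment. The submitters' processing notes name fastp 0.18.0, Bowtie2 2.2.8, HISAT2 2.1.0, StringTie 1.3.1, RSEM and GRCm39, although the chow positions match GRCm38. Strand was not given in the sources used here. The deposited FPKM values were transformed as log2(FPKM + 1) and tested in limma 3.58.1 (R 4.3.3), over every gene whose mean reached 0.5 FPKM, with a trended prior and Benjamini-Hochberg adjustment. Reads were recovered from the steps of FPKM values, which were whole within 0.02 reads in 100% of the values used. Intervals and floors cover counting error only. The 7 genes and all gene lists were chosen with earlier results of these data known. All members were named. Genes were called by adjusted p, or by the study's unadjusted p under 0.05 with a log2 difference of at least 1. In AAV mice the same-numbered samples deviated together (r = 0.23 to 0.50), although number 4 was closest to number 1 of the other group. The main fit used no pairs, and the number was a block only in an alternative setting. On simulated data for the SOL genotype comparison (13330 genes), 97 of 100 genes changed by 1.5 and 99 of 100 changed by 2 on the log2 scale were called. The noise was drawn separately for each gene, and both changes were larger than any member's difference there. These figures are therefore not the sensitivity for the members.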

Additional observations from a re-analysis of the deposited data

Results flagged for a closer look

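Of 47 combinations of gene and group examined, 3 held a library that stood apart from the rest of its group, where chance gives about 1 in 20. In 2 of them every other library of the group was at 0, so that any single value above 0 stands apart. Gm32672 was lowest in the SOL library of ChMKO mouse 61, at 12.42 FPKM, against 17.2 to 18.0 in the other 4. Strit1 (Gm34302) was highest in 1 Norm F/F library, at 0.4554 FPKM, where the other 3 were at 0. Strit1 was also highest in AAV-CON library 8, at 0.213 FPKM, where the other 4 were listed at 0.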

How the results depend on the processing

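Members met the study's criterion in small numbers, and these numbers moved with the settings. In GC the count of 1 became 0 once genes had to reach a mean of 5 FPKM, and 0 to 1 when a library was left out. In SOL it became 2 with a pseudocount of 0.1, and 0 to 2 when a library was left out. For Hypo against Norm in ChMKO it was 0 to 1 when a library was left out, and for HFrD against Norm in F/F the count of 0 became 1 with a pseudocount of 0.1 and 1 with voom on recovered reads. With a pseudocount of 0.1 the median difference between SOL and GC was 6.29 in F/F and 6.27 in ChMKO.

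Small differences changed sign. Leaving out a library gave -0.38 to 0.033 for Mir208b, -0.071 to 0.081 for Gm31251, -0.20 to 0.030 for Gm32672 and -0.086 to 0.0079 for Myh7 in SOL between genotypes. For Strit1 it gave -0.058 to 0.39 under Hypo and -0.28 to 0.0045 on HFrD, and a pseudocount of 0.1 gave -0.095 under Hypo. The interaction of genotype and muscle with a pseudocount of 0.1, added after the data were seen, was 0.13 for Gm32672, 0.060 for Gm34302, 0.37 for Linc-md1 and 1.23 for Mir133b. The cause was not tested.

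With the replicate number as a block, 0 members were called in AAV mice and 0 in C2C12, where same-numbered libraries shared only a number (r = -0.09 to 0.18, 2 of 4 best with their own). With the mouse as a block the median difference between SOL and GC was 4.03 in F/F, 3.98 without the pair labelled 69, and 3.98 in ChMKO. No member passed the filter in AAV mice or C2C12, so these counts of 0 say nothing about stability. Depth limits Mir208b, the GC values of Linc-md1, Mir133b and Gm34302, and Strit1 in all other experiments, which rest on a few reads.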
